A study of Mus musculus with 8 samples.

Results

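YAP, its paralogue TAZ and 8 further genes of the Hippo pathway were followed in fibro/adipogenic progenitors (FAPs), the mesenchymal progenitors of skeletal muscle that can turn into adipocytes or myofibroblasts. The 10 genes were taken by name from the 31053 genes counted. They comprise the co-activators *Yap1* and *Wwtr1* (the gene of TAZ), their DNA-binding partner *Tead1*, the targets *Ccn1* (Cyr61), *Ccn2* (Ctgf), *Ankrd1* and *Axl*, and 3 regulators. Of these, *Lats2* and *Amotl2* encode proteins that restrain YAP and TAZ and are themselves known targets, whereas the protein of *Ajuba* inhibits LATS kinases and so favours YAP. FAPs came from hind limb muscles of *mdx* mice (strain C57BL/10ScSn-Dmdmdx/J, without functional dystrophin) aged 45 days. Cells negative for CD45, CD31 and integrin alpha-7 were sorted by high or low surface SCA-1 into SCA1-High-FAPs and SCA1-Low-FAPs, each with 4 replicates, and the study describes 4 mice as the source of the 8 samples. Both cell states were kept for 5 days in growth medium with serum, with no inducer of differentiation, and were detached with trypsin before RNA extraction. The design text of the series names SCA1-Low-FAPs as the control, whereas the paper gives fold changes in SCA1-Low-FAPs relative to SCA1-High-FAPs. The study compared the 2 states to learn which transcripts differ before differentiation is induced, and here the comparison is restricted to this pathway.

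In the Hippo pathway, the kinases MST1 and MST2 activate LATS1 and LATS2, which phosphorylate YAP and TAZ and thereby hold them in the cytoplasm or lead them to degradation. When cells spread on a stiff surface or build actin tension, YAP and TAZ enter the nucleus and act through TEAD factors on genes such as *Ccn1*, *Ccn2* and *Ankrd1*. Much of this control acts on the proteins, which mRNA counts do not measure. In dystrophic muscle, FAPs lie in a matrix that stiffens as fibrosis proceeds, and YAP and TAZ are known to favour myofibroblast over adipocyte fate in mesenchymal cells.

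TEAD factors bind DNA at the sequence GGAATG, which reads CATTCC on the opposite strand. RefSeq promoter sequences (GRCm38.p6) were matched by symbol for 8 of the 10 genes, all but *Ccn2* and *Tead1*. In the 250 bases before the start site, 7 of these 8 genes held the 6 bases on either strand, whereas 12.6% of all 32851 promoters did. Both promoters listed for *Lats2* lacked these letters. The 10 genes were picked as known members and targets of this pathway, so this share is a description of the choice. The 4 sequences below are shown because *Ankrd1* and *Axl* differed between the cell states and *Ccn1* and *Amotl2* did not pass the test, although all 4 promoters hold the letters. They are written 5′ to 3′ on the strand of the gene, with GGAATG or CATTCC in capitals.
Ankrd1 (chr19:36119845-36120094, minus strand): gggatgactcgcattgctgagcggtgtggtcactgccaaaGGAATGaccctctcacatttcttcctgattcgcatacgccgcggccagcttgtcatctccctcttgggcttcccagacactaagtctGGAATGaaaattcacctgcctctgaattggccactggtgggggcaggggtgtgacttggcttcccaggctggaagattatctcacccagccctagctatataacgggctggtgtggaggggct
Axl (chr7:25788734-25788983, minus strand): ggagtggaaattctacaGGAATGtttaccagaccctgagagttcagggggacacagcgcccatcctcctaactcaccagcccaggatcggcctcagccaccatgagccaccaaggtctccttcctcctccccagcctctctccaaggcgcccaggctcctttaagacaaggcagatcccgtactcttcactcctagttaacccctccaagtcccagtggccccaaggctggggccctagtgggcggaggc
Ccn1 (chr3:145649986-145650235, minus strand): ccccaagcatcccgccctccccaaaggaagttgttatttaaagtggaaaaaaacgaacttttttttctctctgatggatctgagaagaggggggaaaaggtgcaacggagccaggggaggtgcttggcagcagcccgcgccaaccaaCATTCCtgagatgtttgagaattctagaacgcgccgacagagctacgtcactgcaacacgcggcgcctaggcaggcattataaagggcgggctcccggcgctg
Amotl2 (chr9:102717554-102717803, plus strand): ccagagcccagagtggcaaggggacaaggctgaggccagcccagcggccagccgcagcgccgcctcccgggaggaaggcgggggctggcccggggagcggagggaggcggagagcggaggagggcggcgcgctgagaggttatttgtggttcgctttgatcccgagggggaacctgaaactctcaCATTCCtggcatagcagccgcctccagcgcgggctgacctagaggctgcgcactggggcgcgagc
*Ankrd1* held the letters at 2 places, whose first bases lie 210 and 123 bases before the start. *Ajuba* also held 2 copies, at 186 and 164 bases before the start. Only 0.992% of all promoters held 2 or more. In *Axl*, *Ccn1* and *Amotl2* the single copies lay 233, 103 and 65 bases before the start. The presence of the letters in these windows did not separate *Ankrd1* and *Axl* from the genes that did not pass.

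Between 1880561 and 3985656 reads were counted on genes in each sample, so that 3 counts, taken as the detection floor, correspond to 0.792 to 1.63 CPM. CPM gives a gene's count per 1000000 counts of its library, here with the library size corrected by edgeR's TMM factor. In 3′ mRNA libraries each transcript gives reads near its 3′ end, and CPM was not divided by length, so levels are compared between samples and not between genes. This floor covers counting error only, because copies made by PCR were not told apart, whereas the intervals of fold changes come from the fit over replicates. Of all entries counted, 37.5% to 39.7% in SCA1-High-FAPs and 40.8% to 43.3% in SCA1-Low-FAPs were alignments to several positions. These were given to no gene. The FAP markers *Pdgfra* (157 to 291 CPM) and *Col1a1* (5058 to 8882 CPM) were present in all 8 samples. Of the 6 FAP markers listed, 2 were called, in opposite directions. *Dcn*, the gene of the matrix proteoglycan decorin, was at 366 to 1037 CPM among SCA1-High-FAPs and 89.8 to 209 CPM among SCA1-Low-FAPs, 4.22-fold higher in the former (adjusted p = 0.0167), and *Lum* did not pass (log2 fold change −1.22, adjusted p = 0.116). The myogenic genes *Pax7*, *Myf5*, *Myod1* and *Myog* and the leucocyte genes *Adgre1* and *Cd52* had no counts, and the summed endothelial markers stayed at or below 6.53 CPM. Other myogenic markers had counts, with *Itga7*, the gene of integrin alpha-7, up to 9.80 CPM and *Des* up to 2.72 CPM. The summed glial markers stayed at or below 5.43 CPM. The tenocyte marker *Tnmd* was lower in all SCA1-Low-FAP samples but did not pass (log2 fold change −1.55, adjusted p = 0.053). *Scx*, another, had counts only in SCA1-Low-FAPs (up to 8.22 CPM). *Ly6a*, the gene of SCA-1, averaged 711 CPM (± 184 SD, n = 4) among SCA1-High-FAPs and 1087 CPM (± 58.8 SD, n = 4) among SCA1-Low-FAPs. After culture its mRNA was thus higher in the cells sorted for low SCA-1 (log2 fold change 0.61, adjusted p = 0.0341), the opposite of the order of the sort. The labels name the state at sorting, and the groups are used as labelled.

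All 10 genes had enough counts to be tested, with 372 (*Ankrd1*) to 16351 (*Ccn2*) counts over the 8 samples. By edgeR, 2 of the 10 were called, *Axl* and *Ankrd1*, both higher in SCA1-Low-FAPs. A call required an adjusted p under 0.05 and a log2 fold change, always SCA1-Low-FAPs relative to SCA1-High-FAPs, beyond 0.5 in size. Among all 10181 tested genes 7.68% were called in either direction, 3.32% as higher in SCA1-Low-FAPs and 4.36% as higher in SCA1-High-FAPs. The groups did not overlap in 3 of the 10 genes (*Axl*, *Ankrd1* and *Tead1*), with SCA1-Low-FAPs above in each. Of all tested genes, 14.1% did not overlap and 6.67% had SCA1-Low-FAPs above. The median log2 fold change of the 10 genes was 0.14, and that of all tested genes was 0.0003. In bulk RNA, fewer cells that express a gene and less of its RNA per cell cannot be told apart.

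**Figure D1:**
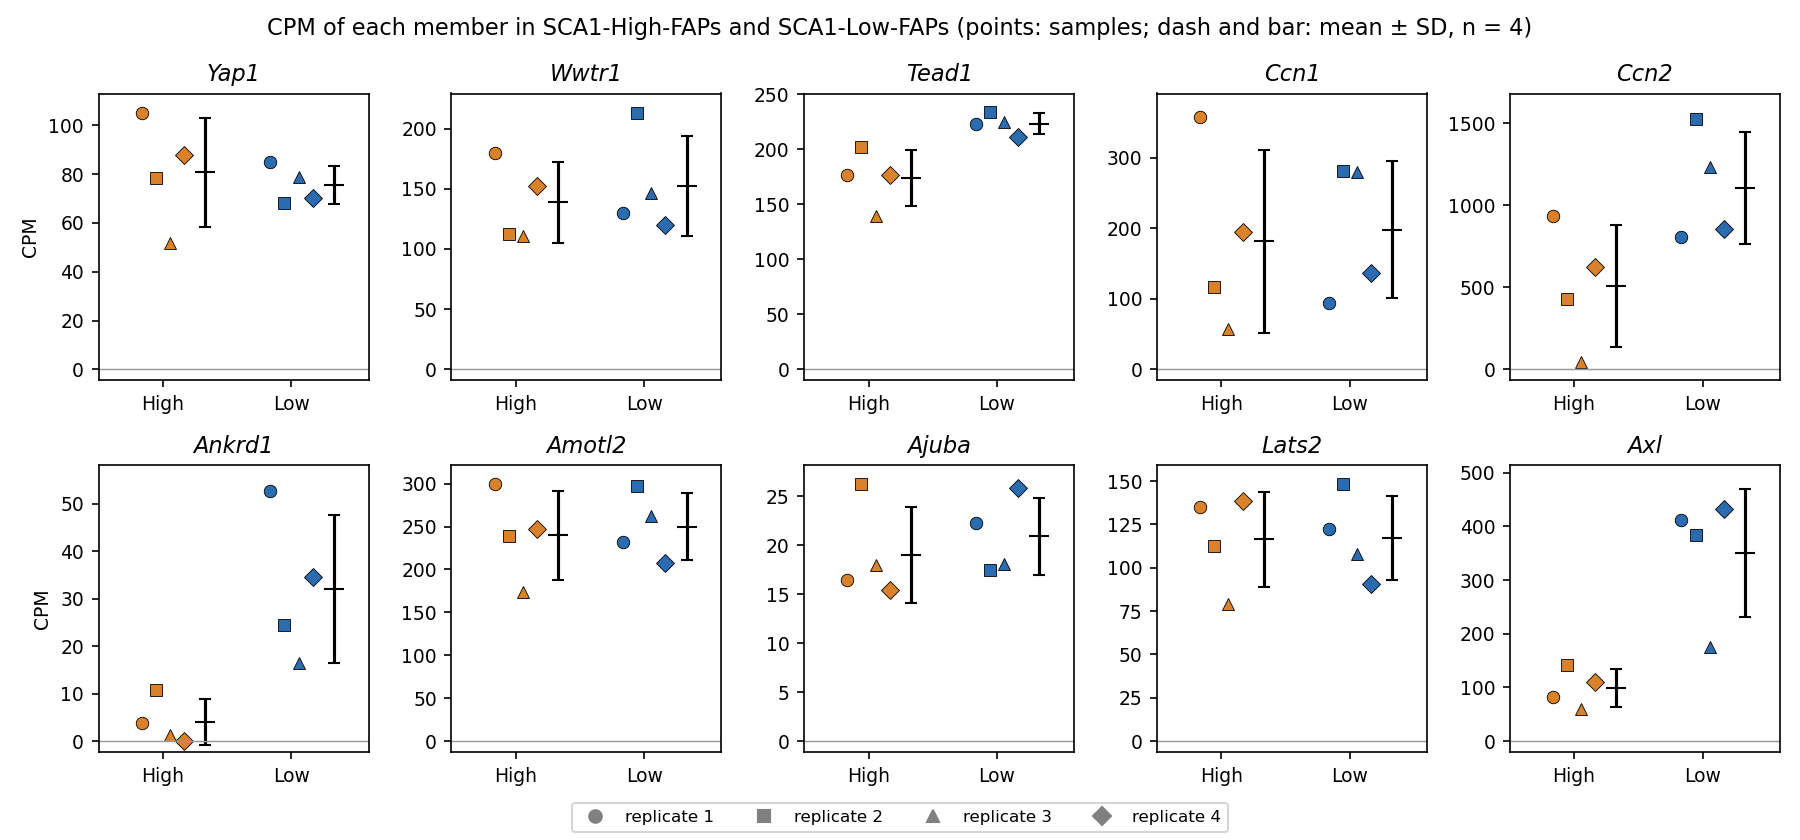
Each panel shows 1 gene, with CPM on a linear vertical axis, a marker shape for each replicate number of SCA1-High-FAPs (orange) and SCA1-Low-FAPs (blue), and the mean with its SD (n = 4) beside them. For *Axl*, *Ankrd1* and *Tead1* the lowest SCA1-Low-FAP sample lies above the highest SCA1-High-FAP sample, while in the other panels the groups overlap.

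Neither co-activator passed the test. *Yap1* (ENSMUSG00000053110, chromosome 9, 7931999 to 8004596, minus strand, GRCm38) was at 105.0, 78.2, 51.8 and 88.0 CPM in replicates 1 to 4 of SCA1-High-FAPs and at 85.1, 68.1, 79.0 and 70.2 CPM in those of SCA1-Low-FAPs. The lowest and the highest value both belonged to SCA1-High-FAPs, and the values of SCA1-Low-FAPs lay between them. On the log2 scale the states differed by −0.09 (standard error 0.21, adjusted p = 0.854), with a 95% interval from −0.53 to 0.34. *Wwtr1* (ENSMUSG00000027803, chromosome 3, 57455649 to 57575910, minus strand), which encodes TAZ, was at 180, 112, 111 and 153 CPM in SCA1-High-FAPs and at 130, 213, 147 and 120.1 CPM in SCA1-Low-FAPs. Replicate 2 of SCA1-Low-FAPs stood highest and the other values of both groups were intermixed. The fitted log2 difference of 0.13 (standard error 0.20, adjusted p = 0.786) had a 95% interval from −0.30 to 0.56. The direction of either gene turned when a single library was left out, to 0.059 for *Yap1* without replicate 1 of SCA1-High-FAPs and to −0.064 for *Wwtr1* without replicate 2 of SCA1-Low-FAPs.

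Within a library, the ratio of *Wwtr1* to *Yap1* counts needs no normalisation. On the log2 scale it averaged 0.79 (± 0.23 SD, n = 4) among SCA1-High-FAPs and 0.98 (± 0.46 SD, n = 4) among SCA1-Low-FAPs. The difference of 0.18 was smaller than either SD (exact permutation test, two-sided, with 70 ways to assign the labels, p = 0.60, and 0.60 after adjustment over the 3 ratios tested). A difference in the balance of TAZ to YAP mRNA was not detectable with 4 replicates.

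*Tead1* (ENSMUSG00000055320, chromosome 7, 112679318 to 112906807, plus strand) encodes the TEAD factor through which YAP and TAZ reach DNA. It was at 177, 203, 140 and 177 CPM in SCA1-High-FAPs and at 223, 234, 225 and 211 CPM in SCA1-Low-FAPs. All 4 SCA1-Low-FAP samples were above all SCA1-High-FAP samples, and they lay closer together. At a log2 fold change of 0.36 and a standard error of 0.15, *Tead1* did not pass (adjusted p = 0.159), and its 95% interval ran from 0.05 to 0.67. *Tead2* was at 15.8 to 35.9 CPM and *Tead3* at 6.26 to 17.9 CPM over the 8 samples, and *Tead4* had 12 counts in all and was not tested. *Tead1* held 80.4% ± 4.30 (SD, n = 4) of the counts of the 4 *Tead* genes in SCA1-High-FAPs and 83.5% ± 0.466 (SD, n = 4) in SCA1-Low-FAPs. This difference of 3.11 percentage points was smaller than the SD of SCA1-High-FAPs but larger than that of SCA1-Low-FAPs. It did not pass (two-sided exact permutation test, p = 0.229, adjusted p = 0.343 over the 3 ratios). These shares compare the states and not the genes, because 3′ capture differs between transcripts.

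**Figure D2:**
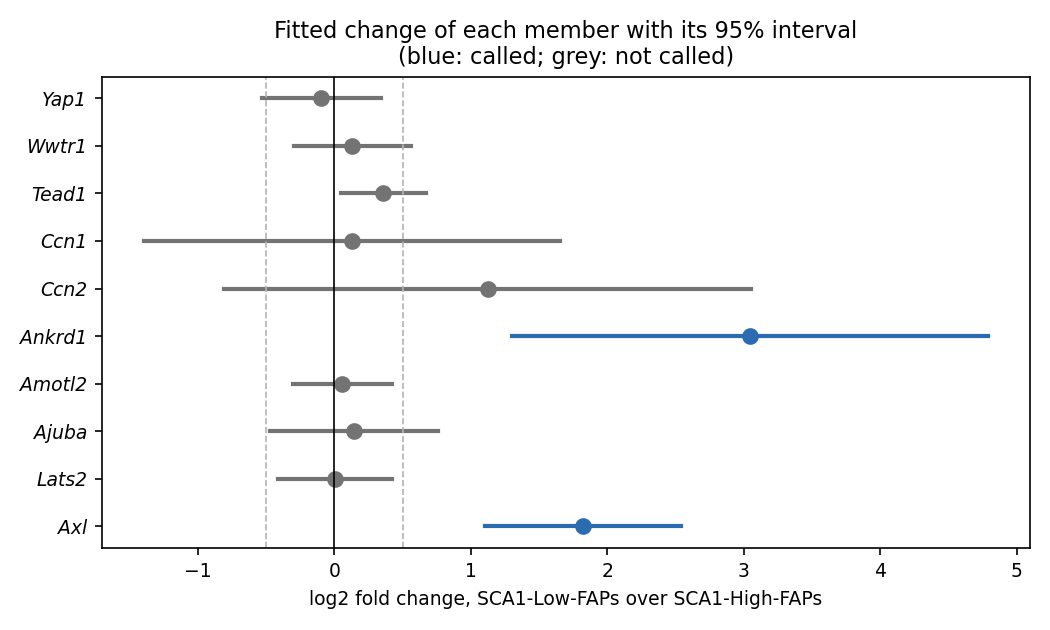
Points are fitted log2 fold changes, SCA1-Low-FAPs relative to SCA1-High-FAPs (horizontal axis, log2 units) and bars are their 95% intervals from edgeR, with dashed lines at the limits of ±0.5. The intervals of *Axl* (1.11 to 2.54) and *Ankrd1* (1.30 to 4.79) lie beyond the upper limit, whereas the interval of *Ccn2* reaches from −0.81 to 3.05.

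*Axl* (ENSMUSG00000002602, chromosome 7, 25757273 to 25788705, minus strand) encodes a receptor tyrosine kinase bound by GAS6 and is a known target of YAP and TAZ. It was at 82.9, 142, 60.1 and 110.4 CPM in replicates 1 to 4 of SCA1-High-FAPs and at 411, 384, 175 and 432 CPM in those of SCA1-Low-FAPs. Replicate 3 of SCA1-Low-FAPs was nearest to SCA1-High-FAPs, and the groups did not overlap. The means of 98.9 CPM (± 35.5 SD, n = 4) and 351 CPM (± 119 SD, n = 4) correspond to a fitted 3.54-fold difference, or 1.82 on the log2 scale with a standard error of 0.32 (adjusted p = 0.0078). *Axl* was called in all 8 fits that left out 1 sample, at log2 fold changes from 1.65 to 2.06. Ordered by log2 fold change, it was number 33 of the 338 genes called higher in SCA1-Low-FAPs.

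*Ankrd1* (ENSMUSG00000024803, chromosome 19, 36111961 to 36120099, minus strand) encodes an ankyrin repeat protein and is among the genes most used as a readout of YAP and TAZ. It had 8, 24, 3 and 0 counts in SCA1-High-FAPs and 109, 45, 52 and 131 counts in SCA1-Low-FAPs. In CPM these are 3.77, 10.9, 1.25 and 0 against 52.7, 24.5, 16.5 and 34.6. Replicates 3 and 4 of SCA1-High-FAPs were at or below the floor of 3 counts, and the groups did not overlap. The fitted difference was 8.24-fold (3.04 on the log2 scale with a standard error of 0.78, adjusted p = 0.0426), number 7 by size among the genes called higher in SCA1-Low-FAPs. The call was lost in 5 of the 8 fits that left out 1 sample. These were the fits without replicate 1 (adjusted p = 0.115) or 3 (0.111) of SCA1-High-FAPs and without replicate 1 (0.0954), 2 (0.0827) or 4 (0.114) of SCA1-Low-FAPs. Without replicate 2 of SCA1-High-FAPs, the highest of its group, it reached 4.32 with an adjusted p of 0.0031. The test of all genes with at least 1 count also gave no call (adjusted p = 0.120).

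The CCN genes, which encode secreted matricellular proteins, varied widely within each cell state. *Ccn1* (ENSMUSG00000028195, chromosome 3, 145646976 to 145649981, minus strand) was at 357, 116, 56.8 and 195 CPM in SCA1-High-FAPs and at 94.3, 280.4, 280.1 and 137 CPM in SCA1-Low-FAPs. High and low values occurred in both groups. The fitted log2 difference of 0.13 (standard error 0.63, adjusted p = 0.942) had a 95% interval from −1.40 to 1.65, and its sign turned when any of 4 single libraries was left out. *Ccn2* (ENSMUSG00000019997, chromosome 10, 24595442 to 24598683, plus strand), a profibrotic gene, was at 933, 429, 44.3 and 626 CPM in SCA1-High-FAPs and at 809, 1528, 1234 and 855 CPM in SCA1-Low-FAPs. The means of 508 CPM (± 372 SD, n = 4) and 1106 CPM (± 340 SD, n = 4) stood 2.18-fold apart in the fit. With replicate 1 of SCA1-High-FAPs above 2 of the SCA1-Low-FAP samples, this difference of 1.12 on the log2 scale, with a standard error of 0.80, did not pass (adjusted p = 0.50). Replicate 3 of SCA1-High-FAPs was far below the rest, and leaving it out gave 0.74 (adjusted p = 0.187).

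Measured against each other within a library, the CCN genes separated the groups. The log2 ratio of *Ccn2* to *Ccn1* counts was 1.39, 1.88, −0.36 and 1.68 in SCA1-High-FAPs and 3.10, 2.45, 2.14 and 2.64 in SCA1-Low-FAPs. All 4 values of SCA1-Low-FAPs were above all values of SCA1-High-FAPs. The difference of 1.43 gave p = 0.0286 in the two-sided exact permutation test, the smallest that the 70 assignments allow, but 0.0857 after adjustment over the 3 ratios. Without replicate 3 of SCA1-High-FAPs the difference was 0.93.

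The remaining 3 genes encode regulators of YAP and TAZ, of which LATS2 and AMOTL2 restrain them and AJUBA acts against LATS. *Lats2* (ENSMUSG00000021959, chromosome 14, 57689662 to 57758388, minus strand), the LATS kinase that is itself induced by YAP, averaged 116 CPM (± 27.5 SD, n = 4) among SCA1-High-FAPs, ranging from 78.9 to 139, and 117 CPM (± 24.3 SD, n = 4) among SCA1-Low-FAPs, ranging from 90.5 to 148. The log2 difference was 0.01 (standard error 0.20, adjusted p = 0.990), with a 95% interval from −0.41 to 0.43. *Lats2* shares 2955 exon bases with a gene model on the same strand, Gm49361, which had no counts. *Amotl2* (ENSMUSG00000032531, chromosome 9, 102716672 to 102733418, plus strand) encodes an angiomotin-like protein that binds YAP at cell junctions. It averaged 239.8 CPM (± 51.9 SD, n = 4) and 249.8 CPM (± 39.1 SD, n = 4) in the same order, 0.06 apart on the log2 scale (standard error 0.17, adjusted p = 0.897). *Ajuba* (ENSMUSG00000022178, chromosome 14, 54567472 to 54577558, minus strand) encodes a LIM protein that binds LATS kinases under tension. With 15.4 to 26.2 CPM in SCA1-High-FAPs and 17.4 to 25.9 CPM in SCA1-Low-FAPs it overlapped throughout (log2 fold change 0.14, standard error 0.29, adjusted p = 0.840).

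**Figure D3:**
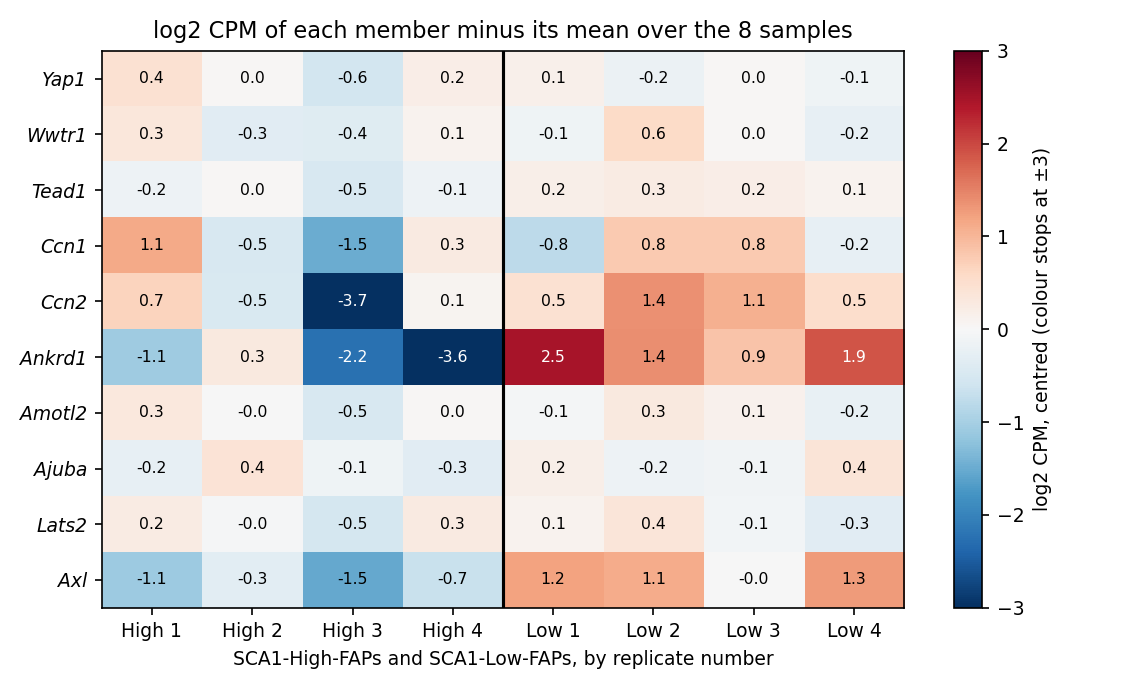
Rows are the 10 genes, columns the 8 samples by cell state and replicate number, and each cell gives log2 CPM minus the gene's mean over the samples. Replicate 3 of SCA1-High-FAPs is the lowest sample in 8 of the 10 rows, and *Ccn1*, *Ccn2*, *Ankrd1* and *Axl* carry most of the colour.

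Among samples, replicate 3 of SCA1-High-FAPs was most often the lowest for these genes. It was the lowest of the 8 samples for 8 of the 10 genes, whereas 18.8% of the tested genes with a single lowest sample were lowest there. The exceptions, *Ankrd1* and *Ajuba*, were lowest in replicate 4 of SCA1-High-FAPs. Replicate 3 of SCA1-High-FAPs was also the lowest sample for genes outside the 10. These included the mitotic genes *Top2a* (267 CPM) and *Plk1* (40.9 CPM) and the actin genes *Acta2* (442 CPM) and *Actn1* (249 CPM), but not *Cdc20* or *Srf*. *Top2a*, *Plk1*, *Acta2* and *Actn1* were called higher in SCA1-Low-FAPs without overlap between the groups. Their lowest sample therefore had to be one of SCA1-High-FAPs. Replicate 3 of SCA1-High-FAPs was also the highest sample for 18.2% of the tested genes. Whether its low values are particular to the 10 genes was not tested. The SD of log2 CPM (with a prior count of 2) within SCA1-High-FAPs was 1.96 for *Ccn2*, 1.65 for *Ankrd1* and 1.12 for *Ccn1*, against 0.22 to 0.53 for the other 7 genes. Without this library only *Axl* was called among the 10 (log2 fold change 1.65, adjusted p = 0.0134), and 5.48% of the genes then tested. *Amotl2*, *Lats2* and *Ccn1* turned to −0.071, −0.14 and −0.17 without it.

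The profiles most like those of the main genes, by the root mean square (RMS) difference of centred log2 CPM over the 8 samples, were found among all tested genes. *Yap1* was most like *G3bp2* and *Cnot2* (RMS difference 0.10 and 0.11), and *Wwtr1* most like *Akap1* and *Uba2* (0.10 and 0.12). *Ccn1* was most like *Ramac* (0.18), and *Ccn2* most like *Gtf2b* and *Prcp* (0.36 and 0.45). *Gtf2b*, which encodes a general transcription factor, reached down to 0.418 CPM in SCA1-High-FAPs, where its highest sample was at 20.2 CPM. That lowest value was below the detection floor, and *Prcp* reached down to 0 CPM in the same group. *Ankrd1* was most like *Ereg* (0.74), which encodes the growth factor epiregulin, and *Cck* (0.84), and *Ereg* ran from 1.67 to 9.49 CPM among SCA1-High-FAPs and from 7.93 to 40.6 CPM among SCA1-Low-FAPs.

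Of the 27 other genes listed for the Hippo pathway, 24 were tested and 2 were called, 1 in each direction. This share of 8.33% was near the 7.68% called among all tested genes. The median log2 fold change of the list was 0.05. *Vgll3*, which encodes a cofactor that also binds TEAD factors, averaged 118 CPM (± 23.3 SD, n = 4) among SCA1-High-FAPs and 202 CPM (± 21.2 SD, n = 4) among SCA1-Low-FAPs. It was 1.71-fold higher in SCA1-Low-FAPs (adjusted p = 0.00897) and was called in all 8 fits that left out 1 sample. *Fat4*, which encodes an atypical cadherin upstream of the pathway, averaged 33.5 CPM (± 7.61 SD, n = 4) and 16.4 CPM (± 3.13 SD, n = 4) in that order. This was 2.03-fold higher in SCA1-High-FAPs (adjusted p = 0.0290). *Fat4* lost its call in 5 of the 8 fits, those without replicate 2 or 3 of SCA1-High-FAPs or without replicate 1, 2 or 4 of SCA1-Low-FAPs (highest adjusted p = 0.0899). Next in order were *Stk3* (log2 fold change −0.79, adjusted p = 0.0954), the gene of MST2, and *Map4k4* (−0.30, adjusted p = 0.265), a kinase that also acts on LATS. The core genes *Lats1*, *Stk4*, *Sav1*, *Nf2*, *Mob1a* and *Mob1b* did not pass.

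Of 16 other genes widely used as YAP and TAZ targets, 13 were tested, 1 was called, and the median log2 fold change was −0.10. The share called was 7.69%, against 7.68% of all tested genes. The called gene, *Ccdc80*, which encodes a secreted matrix protein, averaged 2788 CPM (± 541 SD, n = 4) among SCA1-High-FAPs and 1720 CPM (± 261 SD, n = 4) among SCA1-Low-FAPs, and so lay opposite to *Axl* and *Ankrd1* (1.62-fold higher in SCA1-High-FAPs, adjusted p = 0.0137). Its call was lost without replicate 2 of SCA1-High-FAPs and without replicate 1 or 4 of SCA1-Low-FAPs, where the adjusted p reached 0.0668. *Crim1* (log2 fold change 0.54, adjusted p = 0.103), *Dock5* (1.46, 0.114) and *Nuak2* (1.04, 0.157), an AMPK-related kinase, came next and did not pass. With a share called like that of all tested genes, the 1 call in this list gives no direction for the targets as a group.

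The actin cytoskeleton and its transcription factor SRF respond to mechanical load alongside YAP and TAZ. Of 20 genes of this kind, 10 were called, all higher in SCA1-Low-FAPs, and the median log2 fold change was 0.74. Among all tested genes, 7.68% were called, 3.32% as higher in SCA1-Low-FAPs. The smooth muscle actins *Actg2* (8.88 ± 2.60 against 42.2 ± 18.0 CPM, SD, n = 4) and *Acta2* (946 ± 426 against 2497 ± 434 CPM) were 4.72-fold and 2.64-fold higher (adjusted p = 0.000924 and 0.0213). Of the tropomyosins, *Tpm2* stood at a log2 fold change of 1.55 with a standard error of 0.20 (adjusted p = 0.000472) and *Tpm1* at one of 0.75. *Cnn1* (1.34) and *Tagln* (1.12) encode actin-binding proteins of contractile cells. *Zyx* (1.06, adjusted p = 0.00149), *Actn1* (1.00) and *Flna* (0.63) encode proteins of focal adhesions and actin crosslinks, and *Piezo1* (0.62, adjusted p = 0.0219) encodes a stretch-activated channel. *Srf* itself (−0.12, adjusted p = 0.731) and its cofactors *Mrtfa* (0.66, adjusted p = 0.103) and *Mrtfb* (−0.20, adjusted p = 0.793) did not pass. Neither did *Vcl* (0.10, adjusted p = 0.850) or *Piezo2* (−0.48, adjusted p = 0.426). Of the 20 genes, 17 had a positive and 3 a negative log2 fold change. *Acta2*, *Tagln* and *Flna* each lost the call in 5 of the 8 fits that left out 1 sample (adjusted p up to 0.0731, 0.0812 and 0.105) and *Piezo1* in 4 (up to 0.0845), while the other 6 were called in all 8. In number, the list had 6 calls without replicate 1 or without replicate 4 of SCA1-Low-FAPs and up to 12 in others. In 9 of the 10 called genes, replicate 3 had the lowest level among SCA1-Low-FAPs, as it had in 75.4% of all genes called higher in that state and in 24.2% of all tested genes.

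**Figure D4:**
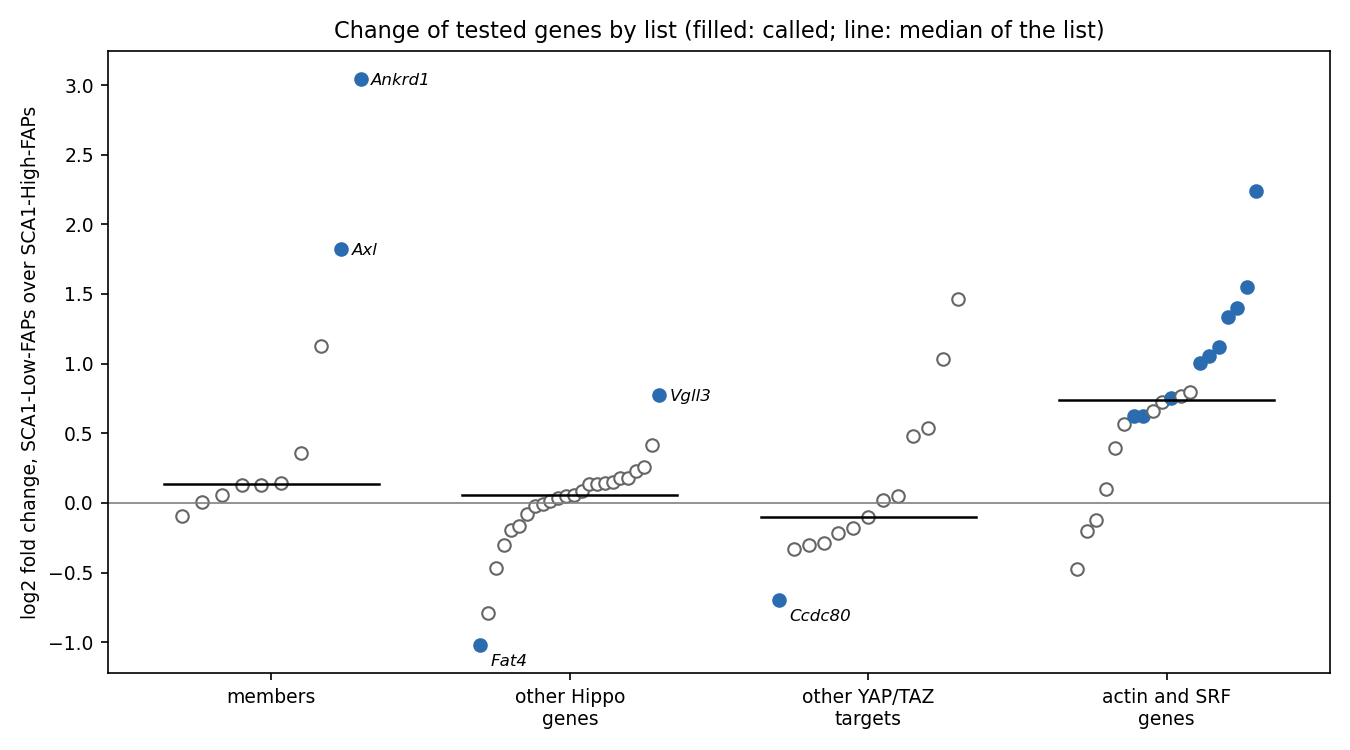
Each point is a tested gene, with its log2 fold change, SCA1-Low-FAPs relative to SCA1-High-FAPs, on the vertical axis, filled where called, and the black line is the median of its list. The medians are 0.14 for the 10 members, 0.05 for other Hippo genes, −0.10 for other targets and 0.74 for actin and SRF genes.

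Other transcripts moved with the same contrast as *Axl* and *Ankrd1*. For the counts below, 7.68% of all tested genes were called and 14.1% did not overlap between the groups. Of 8 mitotic genes, 7 were called, all higher in SCA1-Low-FAPs, among them *Aurka* (log2 fold change 2.27), *Plk1* (1.26) and *Top2a* (0.96), and their summed level ran from 561 to 765 CPM among SCA1-High-FAPs and from 1015 to 1550 CPM among SCA1-Low-FAPs. Of 4 adipocyte markers, 3 were tested, their groups did not overlap, and 1 was called higher in SCA1-High-FAPs. The summed adipocyte level ran from 222 to 1981 CPM among SCA1-High-FAPs and from 18.5 to 115 CPM among SCA1-Low-FAPs, and none of these markers was at 0 in all samples. Of 5 mural cell markers only *Cspg4* was tested, and it was called higher in SCA1-Low-FAPs. *Abcc9* (mean 5.72 against 0.861 CPM), *Mcam* (5.58 against 2.47) and *Rgs5* (3.28 against 1.91), given as SCA1-High-FAPs against SCA1-Low-FAPs and too low to test, lay the other way. The summed mural level ran from 6.78 to 28.2 CPM among SCA1-High-FAPs and from 12.4 to 36.4 CPM among SCA1-Low-FAPs. Of 5 leucocyte markers only *Lyz2* was tested, and it was called higher in SCA1-High-FAPs, with a summed level of 23.1 to 43.0 CPM against 6.77 to 15.9 CPM and *Ptprc* at 1 count in all samples together. Of 8 immediate early genes, which handling of cells can induce, 7 were tested and 1 was called, *Ier3*, at a log2 fold change of 1.18. *Jun* (−0.60, adjusted p = 0.146) and *Egr1* (−0.81, adjusted p = 0.446) did not pass, and *Fos* ranged from 11.0 to 228 CPM within SCA1-High-FAPs. In a separate growth assay, the paper reports a shorter doubling time and earlier confluence for SCA1-High-FAPs, whose share of Ki-67-positive cells then fell faster. That assay was plated at a lower density than the cells that were sequenced. In *mdx* mice, the paper reports that EdU, a label of proliferating cells, marked a larger share of SCA1-High-FAPs than of SCA1-Low-FAPs. The counts do not give the cell density at harvest, which cannot be told apart from cell state here. The part of density, of these transcripts and of the share of entries with several positions in the differences of *Axl* and *Ankrd1* was not tested.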

How the data were processed

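FAP RNA was sequenced by the authors from 3′ mRNA libraries, and per the labels and methods reads were trimmed, aligned with STAR to mm10 (GRCm38) and assigned to Ensembl genes with htseq-count. The authors deposited raw counts per gene. The strand setting was not given in the sources used here. Reads on no feature, ambiguous reads and reads with several positions stayed out of library sizes. Those on no feature made up 9.35% to 10.2% of all entries in SCA1-High-FAPs and 7.87% to 8.83% in SCA1-Low-FAPs. GENCODE M21 gave symbols and positions for 31011 of 31053 genes, and RefSeq the promoters.

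The test was edgeR 4.0.16 (robust quasi-likelihood, TMM, filterByExpr with minima of 10 counts and 15 in total) in R 4.3.3, fitted over all genes with Benjamini-Hochberg adjustment. A standard error is |log2 fold change| over the root of F. Ratios used counts + 0.5. Alternatives were DESeq2 1.42.0 (the tool the study names), RLE and upper quartile factors, other filters and thresholds, a replicate block and each sample left out. Both tools were checked on simulated counts. Members and lists were chosen with earlier results of these data known. The rule for names took all members, the called genes of the Hippo, target and actin lists (filled up to 4 by adjusted p), up to 3 mitotic and immediate early genes, and the 2 genes most alike to 5 members, of which 1 is not reported here. Other genes were named after their values were seen.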

Additional observations from a re-analysis of the deposited data

How the results depend on the processing

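*Axl* kept its direction and its call under all 15 alternatives, at log2 fold changes from 1.65 to 2.06 and adjusted p up to 0.0314. *Ankrd1* kept its direction under the 14 that tested it and was called under 8, with adjusted p from 0.0031 to 0.120, and it reached 3.88 in DESeq2 with the replicate block. It had a sample without counts, so the filter of 10 counts in every sample left it out. *Yap1*, *Wwtr1*, *Tead1*, *Ccn1*, *Ccn2*, *Amotl2*, *Ajuba* and *Lats2* were called under none of their 15. At an adjusted p of 0.01, 307 genes were called in place of 782, with 1 member, 1 other Hippo gene, 0 other targets and 6 actin and SRF genes. The filters of at least 1 count and of 10 counts in every sample each left 1 member called, and under the latter *Lats2* turned to −0.019. DESeq2 called 1065 genes, and with the replicate block 1 other Hippo gene.

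With single samples left out, 410 to 1017 genes were called, 3.96% to 9.85% of those tested (410 without replicate 4 and 417 without replicate 1 of SCA1-Low-FAPs), and among them 1 to 2 members, 1 to 2 other Hippo genes, 0 to 2 other targets and 6 to 12 actin and SRF genes. Log2 fold changes then ranged from −0.26 to 0.059 for *Yap1*, −0.064 to 0.28 for *Wwtr1*, −0.17 to 0.69 for *Ccn1*, −0.071 to 0.19 for *Amotl2* and −0.14 to 0.11 for *Lats2*, and the *Wwtr1* to *Yap1* difference from −0.036 to 0.31. Fewer samples enter each of these fits. Even so, the fit without replicate 3 of SCA1-Low-FAPs called more genes (1017) than the fit of all 8 samples (782). The cause of this spread was not tested.

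Over all tested genes, same-numbered samples did not deviate together (correlation of deviations −0.05 to 0.01). Pairs of different number ran from −0.28 to 0.25. Some immediate early genes did follow the replicate number. *Fos* was at 165, 228, 38.8 and 11.0 CPM in replicates 1 to 4 of SCA1-High-FAPs. In those of SCA1-Low-FAPs it was at 71.5, 127, 21.6 and 14.0 CPM. The order of replicates was also shared by both states for *Fosb*, *Jun* and *Junb*, but not for *Egr1*, *Ier2* and *Ier3*. Its cause was not tested. The labels do not tie a number to a mouse, so which samples share a mouse is not known. The block and the pairs below follow the replicate number only. With the replicate block, edgeR called 697 genes, 2 members (*Axl* at 1.81 and *Ankrd1* at 3.38), 2 other Hippo genes, 1 other target and 12 actin and SRF genes. In the sign-flip permutation of the 4 same-numbered pairs, whose smallest exact p is 0.125, the *Ccn2* to *Ccn1* difference of 1.43 gave p = 0.125. Depth limits *Ankrd1* most, with 35 counts over the 4 SCA1-High-FAP samples.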
